A study of Mus musculus with 16 samples.

Results

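The genes described here are 37 genes of the autophagy machinery and its cargo receptors, chosen by their names from a written list. That list was made with earlier results of these data known. The genes come from the 40840 in the count table of a study of sorafenib in p53-/-; Myc hepatoblasts. These are mouse liver progenitor cells without the tumor suppressor p53 and with an excess of the oncogene Myc, used in culture as a model of hepatocellular carcinoma, and the labels give the cells as the line Hepa p53 -/-,myc. Sorafenib is a kinase inhibitor used against this cancer, the dose here was 8.5 µM, and DMSO is its vehicle. The 16 libraries form 4 groups of 4 replicates, namely DMSO for 48 hours, sorafenib for 48 hours, DMSO for 7 days and sorafenib for 7 days. All 4 groups carry the p53 deletion and the excess of Myc, so that nothing here compares them with cells that have p53. Whether the line is 1 clone, and whether replicates came from separate cultures, is not given, and p-values then measure only the spread between these libraries.

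Autophagy encloses cytoplasm in a double membrane, the autophagosome, which then fuses with the lysosome. The ULK kinase complex starts the process, a PI3-kinase complex marks the membrane with a phospholipid, and lipid carriers feed its growth. Conjugating enzymes then attach the small ubiquitin-like proteins of the ATG8 family to it. Cargo receptors hold ubiquitinated proteins or damaged organelles on one side and ATG8 proteins on the other. In the liver the process is known for clearing mitochondria, protein aggregates and lipid droplets. Only RNA was measured in these files, and neither the flow of material to the lysosome nor protein levels were.

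Total counts per library ran from 16586254 to 30828427 (median 26360677). The filter of at least 10 counts in total kept 20444 genes, and all 37 passed it, with no fewer than 52 counts in any library. Levels are given as normalized counts, which are scaled to a common library size. Values after ± are the SD over 4 libraries for levels and the standard error for log2 fold changes. In 1 library, replicate 2 of sorafenib for 48 hours, counts were lowered from near the start of chromosome 15 through chromosome 19 and X. There, the median ratio to the other replicates was 0.604 of that ratio for the genes before this region. This region holds 7 of the 37 genes (Atg101, Pik3c3, Atg2a, Atg3, Atg12, Atg4a and Calcoco1), and values at 48 hours without this library are given beside their results, as are those at 7 days where the call differed. Trp53 had 1268 to 4799 counts in the 16 libraries and Myc 4226 to 17797. Counts on Trp53 do not show by themselves whether its protein is lost. Of 11 markers of hepatoblasts and liver epithelium, 6 had at least 10 counts in every library, namely Dlk1, Krt19, Krt18, Krt8, Sox9 and Foxa2. Hnf4a was at 0 in all 16 and Alb and Afp were at or near 0. Dlk1 made up most of the summed level and was lower with sorafenib, at mean CPM (counts scaled to one common library total) of 1282 and 416 at 48 hours and 667 and 160 at 7 days. Krt19 (104 and 61.1, 58.0 and 40.4), Krt18 (11.4 and 8.61, 13.3 and 7.05) and Krt8 (4.55 and 2.80, 5.42 and 2.53) were lower as well. Sox9 (8.46 and 26.4, 13.9 and 36.0) and Foxa2 (8.40 and 28.7, 19.1 and 34.3) were higher. The summed CPM of these 11 markers was 1393 to 1447 with DMSO and 513 to 589 with sorafenib at 48 hours, and 748 to 819.8 with DMSO and 274 to 285 with sorafenib at 7 days. Of 6 fibroblast and stellate cell markers, 5 had at least 10 counts in every library and Lrat was at 0. Their sums were 4699 to 4786 with DMSO and 7302 to 7932 with sorafenib at 48 hours, and 4383 to 4529 and 4967 to 5153 at 7 days. Within this sum, mean CPM of Acta2 were 186 with DMSO and 2605 with sorafenib at 48 hours and 962 and 2529 at 7 days. Those of Col1a1 were higher with sorafenib as well, 1669 and 3226 and then 1680 and 2078. Those of Col3a1 went the other way, 2816 and 1847 and then 1770 and 405, as did Pdgfrb and Des. Of 4 leukocyte and macrophage markers, Ptprc, Adgre1 and Lyz2 were at or near 0 and Cd68 was not, and the sum was 2.31 to 3.51 CPM over all groups. Of 3 endothelial markers, Cdh5 and Pecam1 were at or near 0, and the sum, nearly all of it Kdr, was 1.12 to 3.01 CPM with DMSO and 4.58 to 8.82 with sorafenib. These marker sums moved with treatment alongside the results below, and their part in those results was not tested.

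Sorafenib raised the RNA of the receptors Sqstm1 and Optn, of the phospholipid-binding protein Wipi1 and of the protease Atg4a by more than 2-fold at both time points, and lowered that of the ATG8 protein Gabarapl1 by more than 2-fold. At 48 hours, 32 of the 37 genes (86.5%) differed from DMSO at an FDR under 0.05 in edgeR's quasi-likelihood test, 20 higher and 12 lower, against 54.6% of all tested genes (26.9% higher and 27.7% lower). Of the 10646 genes that averaged 100 or more normalized counts, called well-expressed genes below and including all 37 members, 76.4% differed. At 7 days, 29 (78.4%) differed, 22 higher and 7 lower, against 56.8% of all tested genes (28.9% higher and 27.9% lower) and 76.3% of well-expressed genes. Among well-expressed genes, 40.9% rose and 35.5% fell at 48 hours, and 35.8% rose and 40.6% fell at 7 days. The members' share of calls at 7 days was therefore near the background for their level. Their median log2 fold change was 0.14 at 48 hours and 0.20 at 7 days, against −0.051 and 0.020 over all tested genes and 0.022 and −0.034 over well-expressed genes. A log2 fold change of at least 1 was reached by 5 members at each time point, where 18% of all tested and 13.3% of well-expressed genes did so at 48 hours and 20.6% and 14% at 7 days. In bulk RNA, fewer cells with a transcript and less of it per cell cannot be told apart.

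The members did not move as 1 block. By direction at the 2 time points, 17 genes were higher at both, 6 were lower at both (Ulk1, Pik3c3, Pik3r4, Ambra1, Atg2a and Gabarapl1) and 4 were called in opposite directions (Atg14, Atg9a, Nbr1 and Atg2b), where 4.78% of all tested and 7.66% of well-expressed genes were called so. Atg13 and Atg4b were called, as higher, at 7 days alone, and 5 genes at 48 hours alone, Atg16l1 and Tax1bp1 higher and Atg101, Map1lc3b and Calcoco1 lower. Atg12, Atg4d and Gabarapl2 passed the test at neither time point. For the classes other than opposite directions, the shares of all tested and well-expressed genes were not computed, and nothing is read from their sizes. Without the library with lowered counts, which enters the estimate of spread at 7 days too, Atg101 was also called lower and Atg12 higher at 7 days. The comparisons at 48 hours and 7 days used separate DMSO libraries. All 4 libraries of one treatment lay above or below all 4 of the other for 30 members at 48 hours and 29 at 7 days. This held for 48% and 56.8% of all tested and 68.5% and 80% of well-expressed genes. For a single gene such a separation gives p = 0.0286 in an exact two-sided permutation test, the smallest p that 4 libraries against 4 allow.

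**Figure D1:**
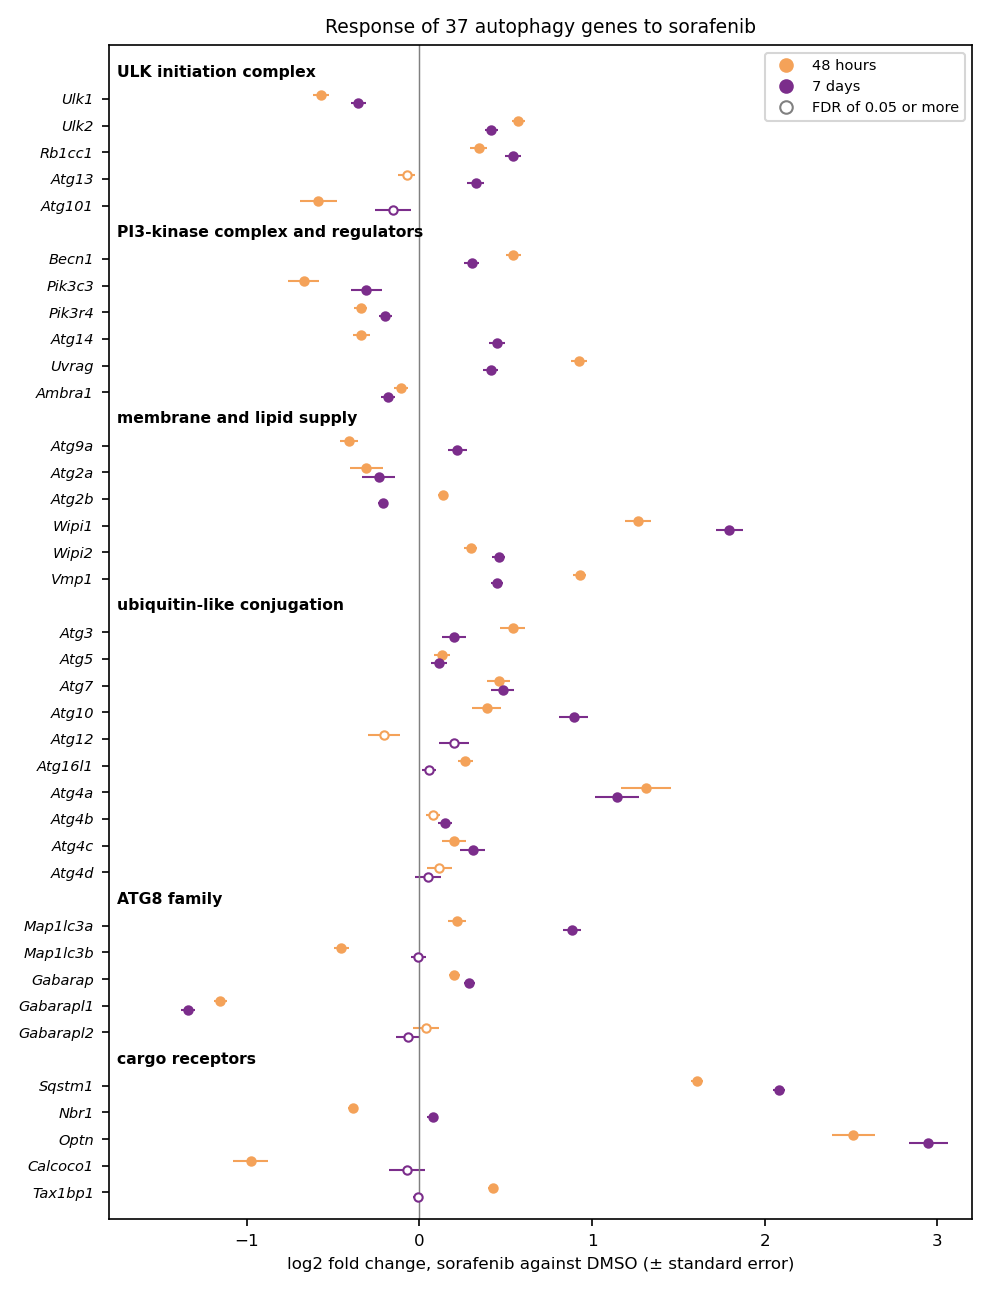
Log2 fold change of normalized counts, sorafenib against DMSO, for each of the 37 genes at 48 hours (orange) and 7 days (purple), grouped by role; horizontal bars are the standard error and open circles mark an FDR of 0.05 or more. Optn (2.51 and 2.95) and Sqstm1 (1.61 and 2.08) lie farthest to the right and Gabarapl1 (−1.15 and −1.34) farthest to the left.

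In the ULK initiation complex, the 2 related kinases moved in opposite directions. Ulk1, the kinase usually placed at the head of the pathway, counted 2529, 2657, 2410.4 and 2609.7 in replicates 1 to 4 of DMSO for 48 hours and 1698, 1842, 1643 and 1702 with sorafenib. At 7 days Ulk1 counted 2338, 2157, 2268 and 2152 with DMSO and 1849, 1702, 1700.3 and 1725 with sorafenib. Its paralog Ulk2 counted 1289, 1346, 1298 and 1338 with DMSO and 1909.7, 2022, 1918 and 2001 with sorafenib at 48 hours. At 7 days Ulk2 counted 1132, 1026, 1029 and 1042 with DMSO and 1423, 1359, 1428 and 1435 with sorafenib. At both time points every sorafenib library was below every DMSO library for Ulk1 and above them all for Ulk2. The log2 fold changes of Ulk1 were −0.57 ± 0.044, FDR = 8.27e-10 at 48 hours and −0.35 ± 0.044, FDR = 7.32e-07 at 7 days, and those of Ulk2 were 0.57 ± 0.038, FDR = 7.96e-11 and 0.42 ± 0.039, FDR = 1.22e-08. Per kilobase of exon, Ulk1 stood at 343 normalized counts and Ulk2 at 151 with DMSO for 48 hours, and at 231 and 225 with sorafenib. At 7 days they stood at 299 and 121 with DMSO and at 234 and 162 with sorafenib, so that the levels of the 2 kinases lay close together with sorafenib for 48 hours and not for 7 days. These 2 genes, and Atg13, Sqstm1, Map1lc3a, Vmp1 and Calcoco1 below, are shown library by library because of their values, outside the rule stated for named genes.

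Rb1cc1, which encodes the scaffold FIP200 of the complex, rose at both times. It counted 1384, 1396, 1420.1 and 1320.4 with DMSO and 1625, 1928, 1702 and 1752 with sorafenib at 48 hours. At 7 days Rb1cc1 counted 1555, 1450.2, 1398 and 1447 with DMSO and 2133, 2133, 2206 and 2044 with sorafenib. The groups did not overlap, and the log2 fold change was 0.34 ± 0.048, FDR = 3.89e-06 at 48 hours and 0.54 ± 0.047, FDR = 4.23e-09 at 7 days, the largest of the complex at the later time. Atg101, a partner of ATG13 in the complex that lies on chromosome 15, counted 531, 584, 557 and 535 with DMSO and 431, 239, 393 and 396 with sorafenib at 48 hours, where the second value is from the library with lowered counts. It fell at 48 hours by 0.58 ± 0.11 on the log2 scale (FDR = 0.000108), and by 0.45 without that library (FDR = 5.04e-08). At 7 days its libraries counted 547, 481, 495 and 499.9 with DMSO and 449.9, 424, 444 and 499.7 with sorafenib, which overlapped (log2 fold change −0.15 ± 0.10, FDR = 0.220, and FDR = 0.0182 without that library). Atg13, the adaptor that binds both kinases, counted 1075, 1008, 946 and 887 with DMSO and 916, 918, 937 and 947 with sorafenib at 48 hours (log2 fold change −0.074 ± 0.050, FDR = 0.227). At 7 days it rose from 803 ± 30.4 to 1005 ± 12.9 (0.33 ± 0.049, FDR = 1.04e-05).

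In the PI3-kinase complex and its regulators, the subunits shared by both forms of the complex split, and the subunits that tell the forms apart moved in their own ways. Pik3c3, the catalytic subunit VPS34, fell from 1045 ± 35.1 to 652 ± 133 at 48 hours (log2 fold change −0.67 ± 0.091, FDR = 2.45e-06, and −0.54 without the library with lowered counts). At 7 days it fell from 857 ± 29.8 to 692 ± 17.4 (−0.31 ± 0.089, FDR = 0.00611). Pik3r4, its regulatory subunit VPS15, fell as well, by 0.34 ± 0.039 on the log2 scale at 48 hours (FDR = 2.39e-07) and by 0.20 ± 0.039 at 7 days (FDR = 0.000199). Becn1, which encodes the shared subunit Beclin 1, rose from 1383 ± 59.0 to 2014 ± 128 at 48 hours (0.54 ± 0.044, FDR = 1.79e-09) and from 1714 ± 54.6 to 2117 ± 33.6 at 7 days (0.30 ± 0.043, FDR = 4.72e-06). Ambra1, a regulator that binds Beclin 1, had small negative values at both times (−0.10 ± 0.040, FDR = 0.0329 and −0.18 ± 0.039, FDR = 0.000545), of which the one at 48 hours was lost without a filter on low counts (FDR = 0.231) and with the replicate number as a block (FDR = 0.0516).

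Uvrag marks the form of the complex that acts at endosomes and late autophagosomes, and it rose by 1.90-fold at 48 hours. Its libraries counted 1094, 1028, 1059 and 1021 with DMSO and 1909.7, 2161, 2011 and 1901 with sorafenib at 48 hours. At 7 days Uvrag counted 1406, 1482, 1470.0 and 1516 with DMSO and 1878, 2060.4, 1963 and 1917 with sorafenib. The groups did not overlap at either time. The sorafenib libraries spanned nearly the same range at 48 hours and 7 days, while the DMSO libraries of 7 days were all above those of 48 hours. The log2 fold change was 0.93 ± 0.045, FDR = 5.39e-13 at 48 hours and 0.41 ± 0.044, FDR = 8.36e-08 at 7 days. Atg14, which takes the place of UVRAG in the form of the complex that starts the autophagosome, was lower at 48 hours and higher at 7 days. It counted 499, 488, 495 and 489 with DMSO and 372, 404, 397 and 387 with sorafenib at 48 hours. At 7 days Atg14 counted 409, 391, 394 and 415 with DMSO and 577, 536, 568 and 515 with sorafenib. The groups did not overlap at either time, the log2 fold changes were −0.34 ± 0.049, FDR = 7.16e-06 and 0.45 ± 0.047, FDR = 7.57e-08, and the difference between them was itself past the threshold (0.79 ± 0.069, FDR = 1.72e-08).

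Among the genes that supply membrane and lipid, Wipi1 changed most. WIPI proteins bind the phospholipid made by the PI3-kinase complex and recruit later factors. Wipi1 (GRCm39 chromosome 11, 109464156 to 109502793, minus strand, overlapped on the other strand by Arsg) counted 232, 217, 184 and 232 with DMSO and 505, 491, 538 and 547 with sorafenib at 48 hours. At 7 days Wipi1 counted 172, 133, 146 and 142 with DMSO and 529, 505, 520.4 and 494 with sorafenib. The 8 sorafenib libraries stood between 491 and 547, and the highest DMSO library at 232. The rise was 2.41-fold at 48 hours (log2 1.27 ± 0.075, FDR = 1.24e-11) and 3.47-fold at 7 days (1.80 ± 0.078, FDR = 8.11e-14), with a lower DMSO level at 7 days than at 48 hours. Its paralog Wipi2 rose from 2613 ± 49.4 to 3216 ± 145 at 48 hours (0.30 ± 0.038, FDR = 1.01e-06) and from 2359 ± 85.0 to 3247 ± 107 at 7 days (0.46 ± 0.038, FDR = 1.71e-09). Per kilobase of exon it was the more abundant of the 2 in every group, at 242 against 37.3 normalized counts with DMSO for 48 hours and 300.1 against 88.3 with sorafenib for 7 days.

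Vmp1, a lipid-moving protein of the endoplasmic reticulum, counted 1916, 1829.7, 1816 and 1732 with DMSO and 3359, 3573, 3482 and 3458 with sorafenib at 48 hours. At 7 days Vmp1 counted 2378, 2392, 2437 and 2482 with DMSO and 3400.4, 3301, 3172 and 3378 with sorafenib. The groups were apart at both times, by 1.90-fold at 48 hours (0.93 ± 0.036, FDR = 1.34e-14) and 1.37-fold at 7 days (0.45 ± 0.035, FDR = 8.42e-10). Atg9a, the membrane protein of the vesicles that seed the autophagosome, counted 1625, 1681, 1776 and 1828 with DMSO and 1319, 1405, 1191 and 1305 with sorafenib at 48 hours. At 7 days Atg9a counted 1115, 1045, 1102 and 994 with DMSO and 1325, 1217, 1219 and 1196 with sorafenib. Every sorafenib library lay below every DMSO library at 48 hours and above every one at 7 days, with log2 fold changes of −0.41 ± 0.053, FDR = 1.60e-06 and 0.22 ± 0.054, FDR = 0.00166. The sorafenib libraries of 7 days lay within the range of those of 48 hours. The 2 ATG2 proteins, which carry lipids to the growing membrane, did not move alike. Atg2b counted 2930.5, 2886, 2925 and 3001 with DMSO and 3168, 3284, 3246 and 3211 with sorafenib at 48 hours. At 7 days Atg2b counted 3133, 3139.5, 3136 and 3165 with DMSO and 2701, 2736, 2729.7 and 2687 with sorafenib. The groups did not overlap at either time, and the log2 fold changes were small and of opposite sign, 0.14 ± 0.027, FDR = 0.000219 and −0.21 ± 0.027, FDR = 9.94e-07. With scaling to total counts alone, the first of these was 0.07 and no longer past the threshold. Atg2a, on chromosome 19, had log2 fold changes of −0.31 ± 0.097, FDR = 0.0109 at 48 hours, or −0.17 without the library with lowered counts (FDR = 0.000210), and −0.24 ± 0.094, FDR = 0.0389 at 7 days. The call of Atg2a at 7 days was lost in 13 alternatives, among them DESeq2 (FDR = 0.0565) and leaving out any 1 of the 8 libraries of 7 days. Without the library with lowered counts, its log2 fold change at 7 days was −0.24 with FDR = 8.76e-08. Every sorafenib library of 7 days lay below every DMSO library of 7 days.

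Of the 10 genes of ubiquitin-like conjugation, 7 rose at each time point, and 6 of these rose at both (Atg3, Atg5, Atg7, Atg10, Atg4a and Atg4c), where 40.9% of well-expressed genes rose at 48 hours and 35.8% at 7 days. The only negative value among the 10 was that of Atg12 at 48 hours, which did not pass the threshold. Atg7, the activating enzyme of both conjugation steps, rose from 396 ± 16.8 to 545 ± 47.4 at 48 hours (0.46 ± 0.067, FDR = 7.26e-06) and from 379 ± 27.6 to 531 ± 33.0 at 7 days (0.48 ± 0.066, FDR = 2.79e-06). Of the enzymes that take over from it, Atg10, which joins ATG12 to ATG5, rose by 1.31-fold at 48 hours (0.39 ± 0.083, FDR = 0.000457) and 1.86-fold at 7 days (0.89 ± 0.083, FDR = 1.09e-08). Atg3, which carries the ATG8 proteins, rose by 1.45-fold (0.54 ± 0.073, FDR = 2.45e-06, and 0.64 without the library with lowered counts) and 1.15-fold (0.20 ± 0.070, FDR = 0.0191). The parts of the complex that these enzymes build showed little. Atg5 had values of 0.13 ± 0.047, FDR = 0.0251 and 0.11 ± 0.046, FDR = 0.0391, of which the first was 0.063 with FDR = 0.247 when replicate 4 of DMSO for 48 hours was left out. Atg16l1 rose at 48 hours (0.27 ± 0.043, FDR = 2.13e-05) and not detectably at 7 days (0.057 ± 0.040, FDR = 0.243). Atg12, on chromosome 18, had values of −0.20 ± 0.091, FDR = 0.0645 and 0.20 ± 0.088, FDR = 0.0580, with −0.084 at 48 hours without the library with lowered counts, and at 7 days 0.20 with FDR = 1.68e-05.

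The 4 ATG4 proteases, which trim ATG8 proteins and later release them from the membrane, differed in response as in level. Atg4a, on the X chromosome (139854582 to 139947293, plus strand), counted 78.2, 67.7, 66.4 and 57.9 with DMSO and 177, 113, 199.9 and 168 with sorafenib at 48 hours. At 7 days Atg4a counted 97.3, 97.7, 118 and 89.0 with DMSO and 219, 223, 245 and 203 with sorafenib. The groups were apart at both times even with the second sorafenib value of 48 hours, which is the library with lowered counts. The rise was 2.48-fold at 48 hours (1.31 ± 0.15, FDR = 1.70e-07, and 1.44 without that library) and 2.21-fold at 7 days (1.14 ± 0.13, FDR = 1.70e-07). Its counts are uncertain to the extent that reads from a processed copy, Atg4a-ps, or from Psmd10 on the other strand were counted to it. Atg4b stood at 1267 ± 20.4, 1336 ± 80.6, 1229 ± 12.5 and 1364 ± 34.0 in the 4 groups in the order given above, a rise past the threshold at 7 days (0.15 ± 0.040, FDR = 0.00296) and not at 48 hours (0.076 ± 0.040, FDR = 0.119). Atg4c had log2 fold changes of 0.20 ± 0.069, FDR = 0.0189 and 0.31 ± 0.073, FDR = 0.00113, the first being 0.12 with FDR = 0.156 without replicate 3 of DMSO for 48 hours. Those of Atg4d were 0.12 ± 0.075, FDR = 0.202 and 0.050 ± 0.073, FDR = 0.594. Per kilobase of exon, Atg4b made up 57.0 ± 1.64% of the 4 genes with DMSO for 48 hours and 53.1 ± 1.83% with sorafenib for 7 days, and Atg4a 6.09 ± 0.658% and 17.4 ± 1.07%. Atg4b had the highest and Atg4a the lowest share of the 4 in DMSO for 48 hours.

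For 31 of the 37 genes the RefSeq table of promoters (GRCm38.p6) held a window of 250 bases before to 50 bases after a start site. These windows were searched on both strands for 4 motifs tied to regulators of autophagy genes. The E-box CACGTG, which factors of the TFEB family and Myc bind and which lies inside the longer CLEAR element (the same letters with GT before and AC after them), was present in 4 of the 37 windows of these genes (10.8%), 1 for each of 4 genes, against 7.15% of all 32851 windows, and the full CLEAR element in none, against 0.326% of all windows. The antioxidant response element core TGACNNNGC was present in 7 of the 37 windows (18.9%, against 12.4% of all windows), of 5 genes, namely Atg13, Map1lc3b, Tax1bp1, Ulk2 and Vmp1, and the core TGATGNAAT of elements bound by C/EBP and ATF factors for none, against 0.965%. These are matches of letters in a window and not sites of binding, and a window without a match says only that these letters are not in it. The E-box genes were picked for display by their expression, as 3 of the 4 are conjugation genes called higher at both times and Atg14 changed direction. This choice ties the motif to no response, and a link was not tested. The calls of Atg5 were lost in 10 alternatives at 48 hours and in 7 at 7 days. The antioxidant element, with matches in more windows, is not printed. In the stretches of 30 bases below, read 5′ to 3′ on the strand of the gene, capitals mark the E-box, and the distance given is that of its first base. The 2 stretches of Atg3 overlap each other by a few bases.
Atg7, chr6:114670952-114670981, plus strand, 132 bases before the start site: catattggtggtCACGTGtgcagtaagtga
Atg5, chr10:44268313-44268342, plus strand, 14 bases before the start site: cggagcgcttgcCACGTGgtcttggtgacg
Atg14, chr14:47568418-47568447, minus strand, 1 base before the start site, which it spans: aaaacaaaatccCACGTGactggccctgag
Atg3, chr16:45158723-45158752, plus strand, 94 bases before the start site: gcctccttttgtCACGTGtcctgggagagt
Atg3, chr16:45158746-45158775, plus strand, 71 bases before the start site: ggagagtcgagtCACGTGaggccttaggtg

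In the ATG8 family, whose proteins coat the autophagosome membrane and bind the receptors, Gabarapl1 fell while its paralogs Gabarap and Map1lc3a rose. Gabarapl1 (GRCm39 chromosome 6, 129509725 to 129520544, plus strand) counted 4101, 4031, 3888 and 4084 with DMSO and 1679.5, 1760.1, 1873 and 1925 with sorafenib at 48 hours. At 7 days Gabarapl1 counted 3382, 3419.6, 3493 and 3394 with DMSO and 1366, 1371, 1324 and 1349 with sorafenib. The highest sorafenib library stood at 1925 and the lowest DMSO library at 3382. It fell 2.22-fold at 48 hours (−1.15 ± 0.038, FDR = 1.11e-15) and 2.53-fold at 7 days (−1.34 ± 0.038, FDR = 1.06e-16). Map1lc3a, one of the LC3 genes, counted 794, 808, 737 and 862 with DMSO and 946, 983, 906 and 896 with sorafenib at 48 hours. At 7 days Map1lc3a counted 607, 551, 556 and 554 with DMSO and 1072, 1042, 990.1 and 1079 with sorafenib. The groups did not overlap, with a small rise at 48 hours (0.22 ± 0.051, FDR = 0.00123) and a larger one, 1.85-fold, at 7 days (0.88 ± 0.052, FDR = 8.54e-12). Map1lc3b, whose protein is the usual marker of autophagosomes, fell from 1823 ± 55.0 to 1336 ± 89.4 at 48 hours (−0.45 ± 0.045, FDR = 3.09e-08), and at 7 days it stood at 1435 ± 49.0 with DMSO and 1429.8 ± 35.1 with sorafenib (−0.0052 ± 0.044, FDR = 0.934). Gabarap rose from 3076 ± 25.2 to 3541 ± 125 (0.20 ± 0.034, FDR = 3.20e-05) and from 2539 ± 42.4 to 3103 ± 119 (0.29 ± 0.034, FDR = 3.09e-07). Gabarapl2 had values of 0.038 ± 0.073, FDR = 0.692 and −0.065 ± 0.070, FDR = 0.454.

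The make-up of the family's RNA therefore shifted more than its total. Summed per kilobase of exon, the 5 genes came to 3385 ± 65.0 normalized counts with DMSO and 3030.0 ± 82.9 with sorafenib at 48 hours, and to 2765 ± 41.8 and 2814 ± 60.5 at 7 days. Gabarapl1 made up 32.2 ± 0.332% of the sum with DMSO and 16.2 ± 1.16% with sorafenib at 48 hours, and 33.5 ± 0.579% and 13.0 ± 0.161% at 7 days. Gabarap had the largest share in every group, 40.3 ± 0.973%, 51.8 ± 0.450%, 40.7 ± 0.412% and 48.9 ± 1.18% in the order given above. In DMSO libraries Gabarapl1 came next and Map1lc3a after it (17.9 ± 0.827% at 48 hours and 15.6 ± 0.602% at 7 days). Under sorafenib Map1lc3a came next (23.4 ± 0.677% and 28.2 ± 0.974%) and Gabarapl1 after it. The libraries of these 2 genes did not overlap in any group. Map1lc3b (7.07 ± 0.139% with DMSO for 48 hours) and Gabarapl2 (2.54 ± 0.168%) had the lowest shares. The order was the same with the length of the longest transcript in place of all exons. Reads that the paralogs share could be split between them, and the counting of such reads is not given.

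**Figure D2:**
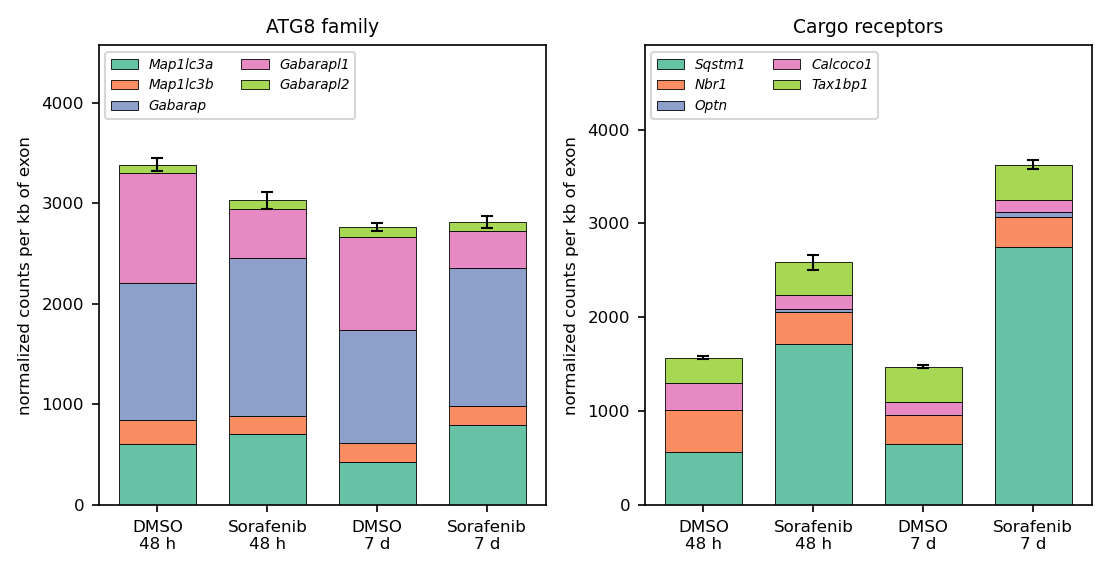
Summed level per kilobase of exon of the 5 ATG8 genes (left) and the 5 cargo receptors (right) in the 4 groups, with bars stacked by gene, each segment the mean of 4 libraries, and error bars the SD of the sum. The Gabarapl1 segment takes 16.2% of the ATG8 bar with sorafenib for 48 hours and 13.0% for 7 days, and Sqstm1 makes up 66.2% of the receptor bar with sorafenib for 48 hours and 75.7% for 7 days.

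Among the 5 cargo receptors, Sqstm1 and Optn rose by more than 2-fold at both times, Tax1bp1 rose at 48 hours and Nbr1 slightly at 7 days, and Nbr1 and Calcoco1 fell at 48 hours. Sqstm1, which encodes p62, the receptor that ties ubiquitinated cargo to ATG8 proteins, lies on GRCm39 chromosome 11, 50089572 to 50107684, minus strand, with Mgat4b and Mrnip overlapping it on the other strand. It counted 4649, 4511, 4667 and 4640.4 with DMSO and 13609, 15106, 14118 and 13383 with sorafenib at 48 hours. At 7 days Sqstm1 counted 5093, 5451, 5429.6 and 5287 with DMSO and 22817, 22736, 22104 and 22439 with sorafenib. The lowest sorafenib library was more than 2-fold above the highest DMSO library at either time. The rise was 3.04-fold at 48 hours (log2 1.61 ± 0.035, FDR = 2.22e-18) and 4.24-fold at 7 days (2.08 ± 0.036, FDR = 5.13e-20), and the response at 7 days was the larger (0.48 ± 0.049, FDR = 1.66e-07 for the difference).

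Optn, the receptor optineurin, known for its part in clearing mitochondria, showed the largest fold change of the 37 genes from a low level. Its libraries counted 50.8, 48.6, 87.8 and 63.1 with DMSO and 326, 387, 346 and 362 with sorafenib at 48 hours. At 7 days Optn counted 87.6, 75.4, 66.5 and 78.8 with DMSO and 593, 608, 533 and 634 with sorafenib. The highest DMSO library stood at 87.8 and the lowest sorafenib library well above it. The rise was 5.71-fold (2.51 ± 0.13, FDR = 8.18e-13) and 7.71-fold (2.95 ± 0.11, FDR = 1.17e-14), and the difference between the time points did not pass the threshold (0.43 ± 0.18, FDR = 0.0702). Even so, per kilobase of exon Optn reached 52.3 normalized counts with sorafenib for 7 days, against 2746 for Sqstm1.

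Nbr1, a receptor built like p62, counted 3459, 3598, 3459 and 3510.1 with DMSO and 2650.5, 2755, 2701 and 2642 with sorafenib at 48 hours. At 7 days Nbr1 counted 2505, 2400.2, 2382 and 2347 with DMSO and 2629.9, 2541, 2477 and 2509 with sorafenib. The groups were apart at 48 hours and overlapped at 7 days. It fell at 48 hours (−0.38 ± 0.032, FDR = 2.00e-09), and its small positive value at 7 days was just past the threshold (0.076 ± 0.032, FDR = 0.0472). That call was lost in 7 of the alternatives tried, so that its place among the genes with opposite directions rests on that value. Calcoco1, a receptor for the endoplasmic reticulum that lies on chromosome 15, counted 2066, 1936, 2110.3 and 2241 with DMSO and 1204, 705, 1165 and 1147 with sorafenib at 48 hours. At 7 days Calcoco1 counted 1039, 948, 1019 and 939.6 with DMSO and 959, 902, 920.1 and 975 with sorafenib. The DMSO libraries of 48 hours stood above the other 12, and the groups of 7 days overlapped each other. Sorafenib changed it by −0.98 ± 0.10, FDR = 7.56e-08 on the log2 scale at 48 hours, or −0.83 without that library, and −0.071 ± 0.10, FDR = 0.593 at 7 days. Tax1bp1, a further receptor of the same family, rose at 48 hours from 3040.0 ± 56.3 to 4082 ± 63.3 (0.43 ± 0.028, FDR = 6.26e-11) and stood at 4374 ± 68.3 with DMSO and 4343 ± 74.6 with sorafenib at 7 days (−0.010 ± 0.028, FDR = 0.776).

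**Figure D3:**
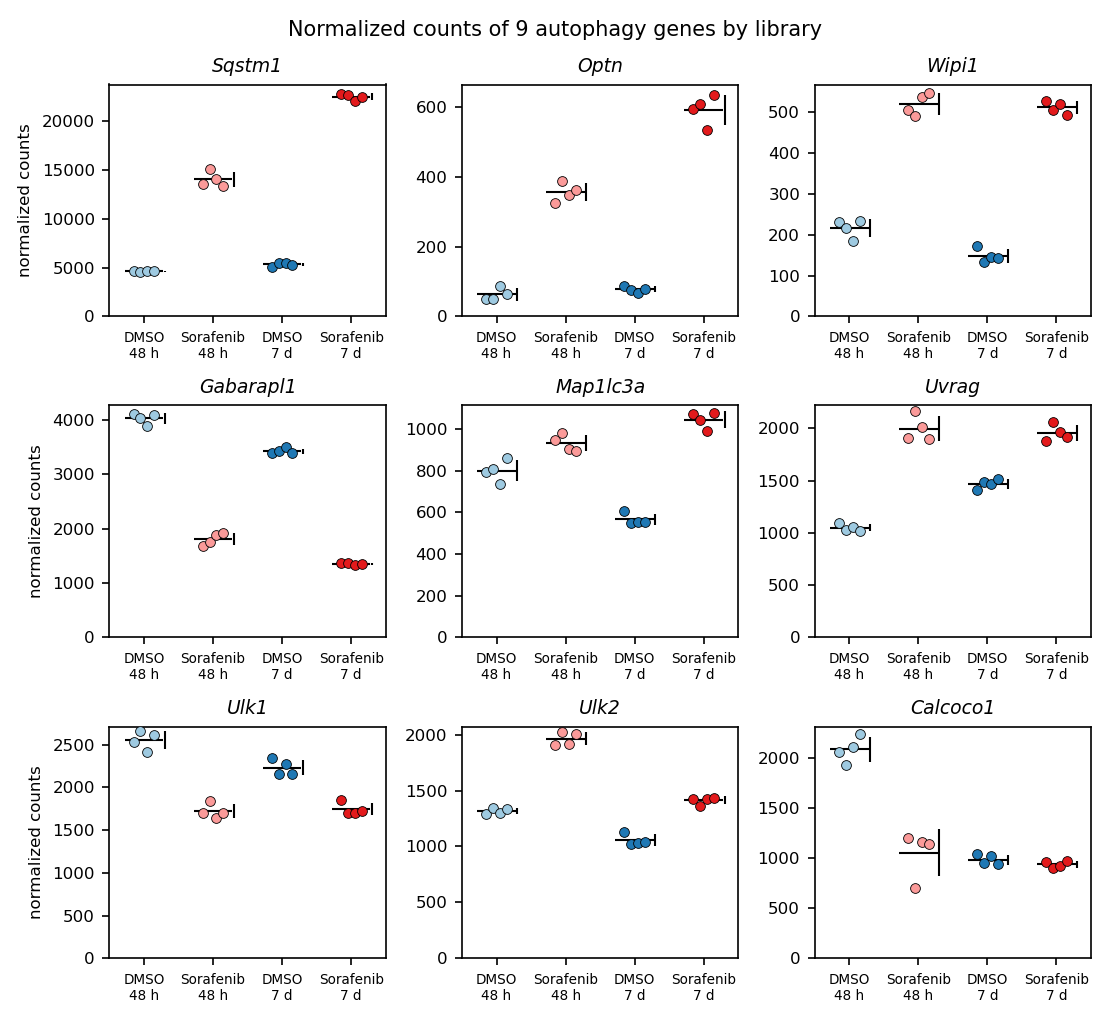
Normalized counts of 9 members in each of the 16 libraries, with horizontal lines at the group means, vertical lines for the SD of 4 libraries, light colors for 48 hours and dark colors for 7 days. The treated libraries of Sqstm1, Optn, Wipi1 and Uvrag lie above the DMSO libraries of the same time and those of Gabarapl1 and Ulk1 below, while Calcoco1 is high with DMSO for 48 hours alone.

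Sqstm1 came to carry much of the RNA of the whole list. Per kilobase of exon, the 5 receptors summed to 1567 ± 15.9 normalized counts with DMSO and 2586 ± 77.1 with sorafenib at 48 hours, and to 1476 ± 16.3 and 3627 ± 44.3 at 7 days. Without Sqstm1 they came to 1004 ± 10.4, 872 ± 25.1, 828 ± 15.2 and 881 ± 6.52. Of the sum over all 37 genes, Sqstm1 made up 6.51 ± 0.126% and 17.7 ± 0.776% at 48 hours and 8.17 ± 0.291% and 25.9 ± 0.187% at 7 days. That sum was 8650.0 ± 82.8 with DMSO and 9654 ± 116 with sorafenib at 48 hours, and 7935 ± 71.2 and 10600.0 ± 128 at 7 days. Without Sqstm1 it was 8087 ± 84.5 and 7940.0 ± 52.8 at 48 hours, and 7287 ± 81.8 and 7855 ± 96.0 at 7 days. The sums of a time point with and without sorafenib thus lay within 1.08-fold of each other once Sqstm1 was left out.

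The difference between the responses at 7 days and 48 hours was tested as the interaction of treatment and time, which shares its libraries with both comparisons. It called 26 of the 37 genes (70.3%), against 36.8% of all tested genes and 55.6% of well-expressed genes. In 17 members the log2 fold change was higher at 7 days and in 9 lower, where 15.5% and 21.3% of all tested and 18.9% and 36.8% of well-expressed genes were called so, and with scaling to total counts alone the split was 20 and 5. The median difference was 0.11 in the members, 0.022 over all tested genes and −0.079 over well-expressed genes. The largest differences were those of Calcoco1 (0.91 ± 0.15, or 0.76 without the library with lowered counts), Atg14 (0.79 ± 0.069), Map1lc3a (0.67 ± 0.073) and Atg9a (0.63 ± 0.076). Uvrag (−0.51 ± 0.063), Vmp1 (−0.48 ± 0.050) and Tax1bp1 (−0.44 ± 0.039) had the lowest. No member reached a difference of 1 on the log2 scale, which 9.61% of all tested and 6.73% of well-expressed genes did.

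The 2 DMSO groups differed as well, in 27 of the 37 genes (73.0%), 10 higher and 17 lower at 7 days, against 49.4% of all tested genes (23.9% higher and 25.5% lower) and 71.7% of well-expressed genes (38.1% and 33.6%). A log2 difference of at least 1 was reached by Calcoco1, against 11% of all tested and 5.98% of well-expressed genes, and the libraries of the DMSO groups did not overlap for 29 members, against 50.8% and 75.9%. This comparison takes in whatever else differed between the cultures of 48 hours and 7 days, which cannot be told apart from time, and it shares the DMSO libraries with the comparisons above. The values with time in DMSO are given here beside those of sorafenib at 48 hours for some of the members named above. Calcoco1 fell by 1.08 on the log2 scale between the DMSO groups, Atg9a by 0.70, Nbr1 by 0.54 and Map1lc3b by 0.35, beside −0.98, −0.41, −0.38 and −0.45 for sorafenib at 48 hours. Atg3 rose by 0.65, Tax1bp1 by 0.52, Atg16l1 by 0.53, Uvrag by 0.48 and Vmp1 by 0.41, beside 0.54, 0.43, 0.27, 0.93 and 0.93. The values were −0.56 with time and 1.27 with sorafenib for Wipi1, −0.50 and 0.22 for Map1lc3a and −0.32 and 0.57 for Ulk2. Since the DMSO libraries of 48 hours enter both values of each pair, the 2 values of a pair are not independent, and nothing is read from their signs.

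The 7 genes in the region where 1 library had lowered counts had the same direction at 48 hours without this library. Relative to the mean of the other 3 replicates, its normalized counts were 0.587 for Atg101, 0.631 for Pik3c3, 0.623 for Atg2a, 0.721 for Atg3, 0.649 for Atg12, 0.625 for Atg4a and 0.601 for Calcoco1. Without the library, the log2 fold changes at 48 hours of the 3 genes that had fallen most were closer to 0 (Calcoco1 −0.83, Pik3c3 −0.54 and Atg101 −0.45) and those of the 2 that had risen were larger (Atg4a 1.44 and Atg3 0.64). Over all 37 genes, 31 were called at 48 hours without it, 19 higher and 12 lower, and 31 at 7 days, 23 higher and 8 lower. The share of all tested genes called without it was 57% at 48 hours and 61.9% at 7 days, against 54.6% and 56.8% with it. Of the 30 genes outside the region, 26 were called at 48 hours with all libraries, 18 higher and 8 lower. For most of these 30 genes this library was the highest of the sorafenib libraries of 48 hours. Examples are Sqstm1 (15106), Uvrag (2161) and Ulk1 (1842), while for Wipi1 it was the lowest (491). Its TMM factor was 1.002, against 0.966 to 0.980 in the other sorafenib libraries of 48 hours. Fold changes at 48 hours outside the region thus include a library that tended to be high.

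**Figure D4:**
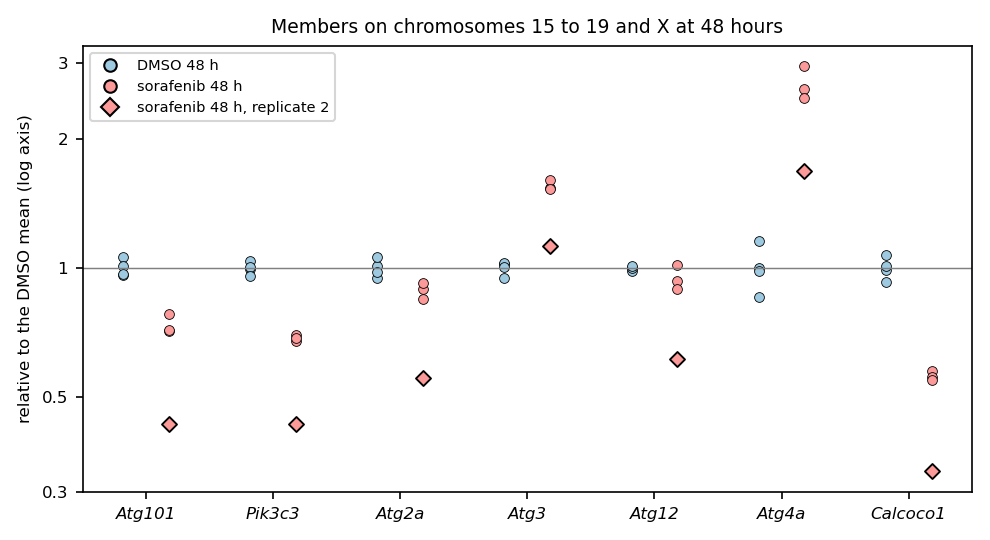
Normalized counts at 48 hours of the 7 members on chromosomes 15 to 19 and X, relative to the mean of the 4 DMSO libraries and on a log axis, with DMSO libraries in blue, sorafenib libraries in pink and replicate 2 of sorafenib as diamonds. The diamond is the lowest of the 4 sorafenib values for each of the 7 genes.

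Other genes of the pathway, in lists written by hand, were read beside the members. Of 54 such genes 53 were tested, and Calcoco2, with 2 counts in total, was not. At 48 hours 42 of the 53 were called in edgeR's quasi-likelihood test, 22 higher and 20 lower, and at 7 days 44, 22 higher and 22 lower. These are 79.2% and 83.0%, against 54.6% and 56.8% of all tested genes and near the 76.4% and 76.3% of well-expressed genes. Of well-expressed genes 40.9% rose and 35.5% fell at 48 hours, and 35.8% and 40.6% at 7 days, beside which the counts of the lists are to be read. Of 15 genes of fusion between autophagosome and lysosome, 9 rose and 2 fell at 48 hours, and 9 rose and 4 fell at 7 days. The tether factor Epg5 had the largest rise at 48 hours (0.68 ± 0.10, or 0.82 without the library with lowered counts) and the HOPS subunit Vps39 at 7 days (0.72 ± 0.042). The fusion proteins Vamp8 (−0.38 ± 0.054 at 48 hours) and Vamp7 (−0.28 ± 0.10 at 7 days) had the largest falls. Of 11 other core factors, 5 rose and 3 fell at 48 hours and 5 rose and 4 fell at 7 days, led by the kinase Ulk3, which rose by 2.32-fold and 2.02-fold. The largest falls among them were those of Wdr45, which encodes WIPI4, at 48 hours (−0.60 ± 0.11, or −0.45 without the library with lowered counts) and of the lipid-moving protein Tmem41b at 7 days (−0.54 ± 0.055).

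Among 17 other receptors of selective autophagy, falls were more frequent, with 5 higher and 10 lower at each time point, where 35.5% of well-expressed genes fell at 48 hours and 40.6% at 7 days. Bnip3, a mitophagy receptor of the mitochondrial outer membrane, stood at 2730.5 ± 156 normalized counts with DMSO and 288 ± 21.8 with sorafenib at 48 hours, and at 191 ± 54.2 and 284 ± 36.6 at 7 days. The log2 fold changes were −3.24 ± 0.11, FDR = 2.33e-15 at 48 hours and 0.60 ± 0.13, FDR = 0.000542 at 7 days, and the DMSO level at 48 hours was the one that stood apart from the other 3 groups. Stbd1, a receptor for glycogen, rose by 2.14-fold at 48 hours and 2.83-fold at 7 days (FDR = 7.18e-18). Ccpg1, a receptor for the endoplasmic reticulum, had the largest fall at 7 days (−0.93 ± 0.055, FDR = 1.04e-11). Of 10 transcription factors known to act on autophagy genes, 3 rose and 5 fell at 48 hours and 3 rose and 4 fell at 7 days. Ddit3, the stress factor CHOP, rose 11.9-fold and 7.48-fold. Foxo3 had the largest fall at 48 hours (−0.94 ± 0.035, FDR = 7.16e-15) and fell at 7 days too (−0.73 ± 0.036, FDR = 4.77e-13). Tfeb, which drives lysosomal and autophagy genes and lies in the region with lowered counts, had the largest fall at 7 days (−1.38 ± 0.072, FDR = 1.52e-12). It fell at 48 hours too (−0.46 ± 0.071, FDR = 1.25e-05, or −0.38 without the library with lowered counts, FDR = 6.87e-08).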

How the data were processed

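The authors sequenced total RNA of 16 cell samples as Illumina stranded mRNA libraries, aligned reads to GRCm39 with STAR 2.7.1a and, per the submitters' processing notes, counted them with featureCounts 2.0.6. The deposited values are counts per gene, whole numbers with no normalization, pooling or filter, for 40840 genes. The strand setting and annotation of the counting are not given in the sources used here. Counts of genes with paralogs or processed copies, or that overlap another on the other strand (Sqstm1 with Mgat4b and Mrnip, Wipi1 with Arsg, Gabarapl1 with 1700101I11Rik, Becn1 with Cntd1, Atg9a with Ankzf1, Vmp1 with Ptrh2, Atg10 with Rps23), are uncertain to that extent.

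As in the study's methods, genes with fewer than 10 counts over all samples were removed (20396), which left 20444. In R 4.3.3, edgeR 4.0.16 was used for TMM normalization and quasi-likelihood tests in 1 model with a coefficient per group and no block, with Benjamini-Hochberg adjustment (FDR) over all 20444 genes and calls at an FDR under 0.05. The study used DESeq2 1.40.2. Standard errors of log2 fold changes were derived from the quasi-likelihood F statistic. Normalized counts are counts over total times TMM factor, divided by the geometric mean of that product across libraries. Positions and exon lengths are from GENCODE vM39 (GRCm39), which gave a position for 32487 of the 40840 genes, and promoter windows are from RefSeq (GRCm38.p6). Single-gene permutation tests are exact and two-sided. The edgeR test of sorafenib against DMSO at the earlier time point was first tried on simulated counts that held known fold changes. The other comparisons and steps were not tried in this way.

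The 37 genes, their 6 role groups and the other lists were chosen with earlier results of these data known. Values in every library are given for the called member with the largest absolute log2 fold change in each role group at each time point and for members called in opposite directions. Of the other lists, the largest rise and fall per time point are named. The alternatives were DESeq2 1.42.0, DESeq2 size factors or total counts in place of TMM, 2 other filters on low counts, a log2 fold change of at least 1, only the libraries compared, the replicate number as a block, limma 3.58.1 voom with sample weights, an offset for the lowered region, the longest transcript as gene length, and each library left out in turn. Counting members outside the lowered region alone was added after the data were seen. Each member had at least 52 counts in every library, the lowest being a count of Optn. Spread between libraries differed among members with low counts. With DMSO for 48 hours, levels were 62.6 ± 18.0 for Optn, 67.5 ± 8.33 for Atg4a and 127 ± 3.84 for Atg10. The part of counting error in this spread was not tested.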

Additional observations from a re-analysis of the deposited data

Results flagged for a closer look

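In 12 of 148 groups of 4 libraries (37 genes in 4 groups), the highest or lowest library lay farther from the other 3 than Dixon's 95% criterion allows, where chance alone gives about 1 in 20 groups. Of these, 3 were the library with lowered counts, replicate 2 of sorafenib for 48 hours, as the lowest for Pik3c3 (453.6 normalized counts), Atg3 (1148) and Calcoco1 (704.7), which all lie in the lowered region. Replicate 1 of sorafenib for 7 days was the highest of its group for Ulk1 (1849), Wipi2 (3406) and Atg16l1 (1159), and replicate 2 of that group the lowest for Ulk2 (1359). Replicate 1 of DMSO for 7 days was the highest for Ulk2 (1132) and Map1lc3a (606.6) and the lowest for Ambra1 (1691). Of DMSO for 48 hours, replicate 4 was the highest for Atg4b (1297) and replicate 2 the lowest for Sqstm1 (4511).

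The response to sorafenib differed between 7 days and 48 hours in 26 genes, by the test of the interaction. Differences are given as the log2 fold change at 7 days minus that at 48 hours. In the ULK complex they were 0.216 for Ulk1, −0.1563 for Ulk2, 0.1998 for Rb1cc1, 0.3991 for Atg13 and 0.4303 for Atg101. Among the PI3-kinase genes they were −0.2392 for Becn1, 0.3631 for Pik3c3, 0.1417 for Pik3r4, 0.7869 for Atg14 and −0.5126 for Uvrag. Without the library with lowered counts, the difference of Pik3c3 was 0.24 and that of Atg101 0.29. For the membrane genes they were 0.628 for Atg9a, −0.3487 for Atg2b, 0.5278 for Wipi1, 0.1618 for Wipi2 and −0.4763 for Vmp1. The conjugation genes gave −0.3386 for Atg3, 0.503 for Atg10, 0.4059 for Atg12 and −0.2087 for Atg16l1. Leaving out the library with lowered counts gave −0.44 for Atg3 and 0.28 for Atg12. In the ATG8 family they were 0.6676 for Map1lc3a, 0.4468 for Map1lc3b and −0.1876 for Gabarapl1, and among the receptors 0.4772 for Sqstm1, 0.4605 for Nbr1, 0.9054 for Calcoco1 and −0.4358 for Tax1bp1. The difference of Calcoco1 was 0.76 without the library with lowered counts.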

How the results depend on the processing

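Under the alternatives, with the added fold threshold set aside, 3519 values of single genes kept their side of the threshold, 91 lost and 53 gained a call. No value past the threshold changed direction, while some near 0 that did not pass it changed sign, such as the difference of Atg2a. With a log2 fold change of at least 1 added, 5 of the 37 genes were called at 48 hours, 5 at 7 days, 0 for the difference between time points (26 by the FDR alone, and 27 with DESeq2) and 1 between the DMSO groups. Of all tested genes, 18%, 20.6%, 9.61% and 11% were called with this threshold added, and 36.8% for the difference by the FDR alone and 37% with DESeq2. Leaving out each library in turn gave 30 to 33 members called at 48 hours, 26 to 31 at 7 days, 22 to 28 for the difference and 27 to 31 between the DMSO groups. Over all tested genes the shares called ran from 52.4% to 57%, 54.3% to 61.9%, 34.9% to 43% and 46.4% to 55.2%. Scaling to total counts alone moved the median of all genes by at most 0.0938 on the log2 scale and changed the split of the difference between time points from 17 higher and 9 lower to 20 and 5. Atg5 at 48 hours lost its call in 10 alternatives and at 7 days in 7, Atg2a at 7 days in 13, Nbr1 at 7 days in 7, Atg4c at 48 hours in 6, and the differences of Ulk2 in 10, Pik3r4 in 9 and Pik3c3 in 6, while Atg12 gained a call at 7 days in 9 and Optn for the difference in 8. The cause was not tested. With the longest transcript as gene length, Map1lc3b made up 10.5% and Gabarapl1 28.9% of the ATG8 family with DMSO for 48 hours, and Atg4b 68.7% and Atg4a 4.55% of the ATG4 family.

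Whether the replicate numbers pair the libraries is not given. Deviations from the group means of libraries with the same number correlated at −0.0483 to 0.0106 at 48 hours and −0.0074 to 0.123 at 7 days. For different numbers the ranges were −0.0388 to 0.071 and −0.158 to 0.11. The means at 7 days were 0.0678 for the same number and −0.022 for different numbers. Between the 2 DMSO groups the ranges were −0.182 to 0.054 for the same number and −0.327 to 0.372 for different numbers. Both ends of the latter range came from replicate 4 of DMSO for 7 days. Replicates were not all equally alike. A chi-square per gene between replicates of DMSO for 7 days was 40.7 to 54.8 for pairs with replicate 4. For the other pairs of that group it was 1.78 to 2.76. In DMSO for 48 hours it was 14.5 to 32.8 between replicates 1 or 4 and replicates 2 or 3. It was 4.21 between replicates 1 and 4 and 4.84 between 2 and 3. In sorafenib for 48 hours it was 25.3 to 29.4 for pairs with replicate 2, the library with lowered counts, and 2.21 to 4.88 for the others. In sorafenib for 7 days it was 1.49 to 3.99. With the replicate number as a block, 32 members were called at 48 hours, 28 at 7 days, 25 for the difference and 28 between the DMSO groups. Of all tested genes, 52.1%, 53.9%, 34.2% and 47.3% were called with the block. The block ended the calls of Ambra1 at 48 hours, of Atg5 and Nbr1 at 7 days and of the difference of Pik3r4, and added Atg12 at both times and Gabarapl2 between the DMSO groups.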
